A study of Arabidopsis thaliana with 72 samples.

Results

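The genes of the mitochondrial genome of Arabidopsis thaliana were followed in roots and shoots of seedlings given t-chalcone, across 24 h. They were taken as every row of the deposited expression table whose identifier begins with ATMG, which gave 78 of 22884 genes. Seedlings were 14 days old, raised at 22 ºC on agar with 1% sucrose in days of 16 h light and 8 h darkness. Treatment began 7 h into the light period. The t-chalcone groups received 8 mL of 21 µM t-chalcone per plate, and the control groups are labelled as given 0.1% ethanol (EtOH). Roots and shoots were each sampled 1, 3, 6, 12 and 24 h after t-chalcone or EtOH, and also at 0 h for EtOH, with 3 samples per group. t-Chalcone is a small aromatic ketone related to the flavonoids of plants, and the series title calls it a natural phytotoxin. The labels name no ecotype, and they do not say whether samples of a group came from separate cultures, so p-values measure no more than how these samples spread, and that spread may be technical. Groups labelled untreated at 0 h held values identical to EtOH at 0 h and were not counted again.

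Plant mitochondria keep a small genome of their own. It encodes some subunits of the respiratory complexes and of the ATP synthase, proteins that assemble cytochrome c, some proteins and the RNAs of the mitochondrial ribosome, and many reading frames with no known role. Most mitochondrial proteins are instead encoded in the nucleus, translated in the cytosol and imported, including the enzymes that copy, splice, edit and degrade mitochondrial RNA. Mitochondrial messengers largely lack the stable poly(A) tails of nuclear messengers, and a poly(A) tail in plant mitochondria is known mainly as a signal for decay.

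Every value below was read above the lowest value of its library, since the deposited table holds no 0 and its lowest value is worth 1 whole number. The unit is the authors' normalised count, called a unit here. A value of 0 therefore means that a gene stood at the lowest value of the library, and a gene counts as detected where it stood above it. Few whole numbers fell to mitochondrial genes, which does not show that the tissue held little mitochondrial RNA. A library held 11 to 707 whole numbers above the lowest over all 78 genes in roots (median 307), and 6 to 943 in shoots (median 201.5). Per M (mega) whole numbers of the library, these sums came to 11.8 to 38.4 in roots (median 25.8) and 2.56 to 44.5 in shoots (median 14.8). Means below are over the 31 root libraries and the 30 shoot libraries, with the SD over these libraries of 11 groups each. No gene lengths were at hand for these identifiers, so a higher value of one gene than of another does not show more transcript, and genes are set against themselves between samples.

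Library depth varied, and with it the number of mitochondrial genes that could be seen. The 61 libraries used held 0.866 to 22.5 M whole numbers in roots (median 11.3 M) and 1.51 to 26.0 M in shoots (median 14.7 M). Another 5 libraries of 0.128 to 0.390 M, whose lowest value was 17.4 to 40.5 units, were left out. The groups they came from, namely roots EtOH at 0 h and 3 h, shoots EtOH at 12 h and 24 h, and shoots t-chalcone at 24 h, had 2 libraries each. Photosynthesis markers averaged 5.70 to 8.35 in root libraries and 13.1 to 15.4 in shoot libraries on the log2 scale, and root markers 4.64 to 8.59 in root libraries and 1.01 to 4.54 in shoot libraries. In the 6 root libraries under 2.5 M, 4 to 13 mitochondrial genes were detected, against 35 to 54 in the 21 root libraries over 8 M. In the 3 shoot libraries under 2.5 M, 4 to 6 were detected, against 25 to 53 in the 25 over 8 M. Deeper libraries thus held more detected genes in both tissues. A gene at 0 in a shallow library was not detected there, which does not show it absent.

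**Figure D1:**
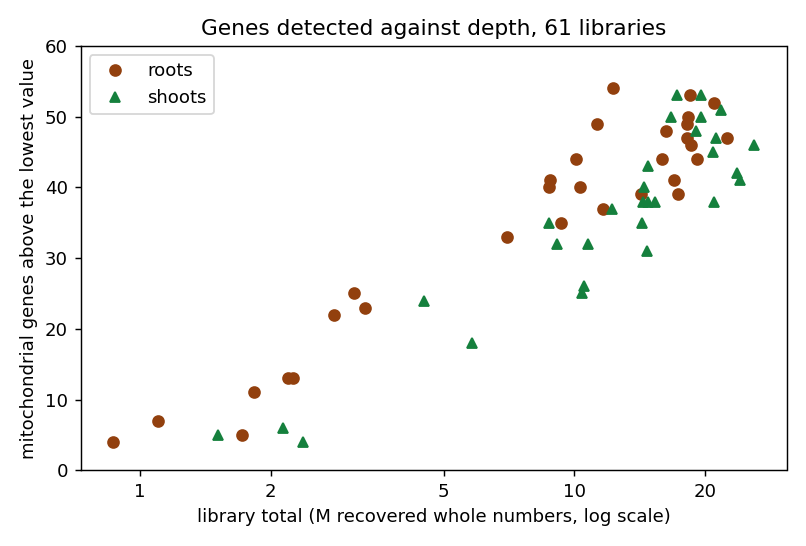
Number of mitochondrial genes above the lowest value (vertical axis, of 78) against the library total in M whole numbers (horizontal axis, log scale), with 1 point for each of 31 root and 30 shoot libraries. The libraries under 2.5 M hold at most 13 detected genes, and those over 8 M hold 25 to 54.

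All 78 genes were detected in at least 1 of the libraries used, but most stood near the lowest value. In roots, 34 genes were detected in over 50% of libraries, 26 in 1 to 5 libraries and 1 in none, which was ATMG01020. In shoots, 35 genes were detected in over 50% of libraries, 23 in 1 to 5 libraries and 3 in none, which were ATMG00400, ATMG01260 and ATMG01275. ATMG00030 was the only gene detected in every root library, and no gene was detected in every shoot library. The mean stood under 1 unit for 49 genes in roots and 46 in shoots, and over 5 units for 6 genes in roots and 8 in shoots. The mean was higher in roots than in shoots for 42 genes and lower for 36.

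ATMG00030, which the reference used here gives no name, took up a larger share of the mitochondrial whole numbers in roots than in shoots, by the medians below. Its level in root libraries ran between 39.9 and 89.1 units, with a mean of 55.7 ± 11.6 units (SD, n = 31). In shoot libraries its level ran between 0 and 82.1 units, with a mean of 15.4 ± 15.9 units (SD, n = 30). It made up 26.5% to 72.7% of the mitochondrial whole numbers of a root library (median 36.2%) and 0% to 33.3% of those of a shoot library (median 9.04%). The highest shares came from shallow libraries, with 11 mitochondrial whole numbers in the root library and 6 in the shoot library. Root libraries of t-chalcone held 58.2, 62.5 and 53.6 units of ATMG00030 at 1 h, 53.2, 40.6 and 54.2 at 3 h, 56.1, 65.5 and 53.3 at 6 h, 47.3, 65.3 and 40.0 at 12 h, and 52.6, 47.1 and 49.7 at 24 h. Root libraries of EtOH held 71.8 and 89.1 units at 0 h, 46.4, 39.9 and 47.8 at 1 h, 42.1 and 56.5 at 3 h, 65.1, 48.4 and 65.4 at 6 h, 45.9, 44.9 and 74.3 at 12 h, and 56.0, 59.8 and 74.7 at 24 h. The lowest EtOH library was one of 1 h, where all 3 stood under all 3 of t-chalcone, and the t-chalcone libraries at 24 h all stood under those of EtOH. Shoots at 6 h held 14.1, 11.9 and 12.6 units under t-chalcone and 8.24, 1.33 and 5.15 units under EtOH.

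In 2 shoot libraries, t-chalcone 1 h replicate 1 and EtOH 3 h replicate 1, some mitochondrial values stood apart from the rest. ATMG00030 reached 50.6 units in the t-chalcone library and 82.1 units in the EtOH library, while the other 28 shoot libraries held at most 35.2 units. ATMG00280, which the reference describes by a catalytic domain of the Rubisco large chain, reached 50.6 units in that t-chalcone library and 93.3 in that EtOH library, while the others held at most 9.57. AT2G07732, the nuclear row that the reference pairs with ATMG00280, reached 228.9 units in the t-chalcone library and 403.4 in the EtOH library. Rubisco is the carbon-fixing enzyme of the chloroplast, whose large chain is encoded in chloroplast DNA, and the table holds no row of the chloroplast genome. Without these 2 libraries, the sum over the 78 genes in shoots had a median of 123 units and reached 270 units, and per M it had a median of 14.3 and reached 33.4. ATMG00280 then no longer passed the filter on low values that the limma tests below use.

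Subunits of the respiratory complexes with a role in the reference stood near the lowest value in many libraries of both tissues. ATMG00990, NADH dehydrogenase 3 of complex I, the entry point of electrons from NADH, averaged 3.11 ± 1.88 units in roots and 1.77 ± 1.59 in shoots. ATMG01320, NADH dehydrogenase 2B of the same complex, averaged 1.51 ± 1.42 units in roots and 0.777 ± 0.952 in shoots. ATMG01275, NADH dehydrogenase 1A, was detected in 7 root libraries with a highest value of 3.07 units and in no shoot library. For complex III, which passes electrons on to cytochrome c, ATMG00220 (apocytochrome b) averaged 0.823 ± 1.30 units in roots and 0.225 ± 0.667 in shoots. ATMG00590, a cytochrome b/b6 protein, averaged 0.430 ± 0.597 units in roots and 1.46 ± 1.48 in shoots. For complex IV, which hands electrons to oxygen, ATMG00730 (cytochrome c oxidase subunit 3) averaged 2.28 ± 1.99 units in roots and 1.60 ± 1.45 in shoots. ATMG01280, described by a transmembrane domain like that of cytochrome c oxidase II, was detected in 3 root libraries and 12 shoot libraries. The SD came close to the mean or exceeded it for most of these genes.

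Genes described as ATP synthase subunits had higher means in shoots in 4 of 5 cases. ATMG01080, F0 subunit 9, a part of the membrane ring, averaged 3.72 ± 1.92 units in roots and 11.7 ± 9.27 in shoots. ATMG01090, which the reference calls a mitochondrial ATP synthase 9, averaged 0.501 ± 0.720 units in roots and 6.73 ± 5.30 in shoots. It was detected in 13 root libraries, where it reached 2.45 units, and in 28 shoot libraries, where it reached 27.2. ATMG00480, F0 subunit 8, averaged 0.739 ± 0.778 units in roots and 2.83 ± 2.47 in shoots. ATMG00410, ATPase subunit 6-1, averaged 3.74 ± 2.73 units in roots and 4.23 ± 3.44 in shoots, which overlap widely. ATMG01190, ATP synthase subunit 1, averaged 3.71 ± 4.39 units in roots and 3.18 ± 3.43 in shoots.

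Cytochrome c assembly attaches haem to the protein. Of its genes, ATMG00180 (cytochrome c biogenesis) averaged 1.98 ± 1.64 units in roots and 5.05 ± 3.34 in shoots, whereas ATMG00960 was detected in 6 root libraries and 2 shoot libraries. Among ribosomal proteins, ATMG00980, of the S12/S23 family, had 4.17 ± 2.33 units in roots and 2.13 ± 1.88 in shoots. ATMG00290 (S4) had 0.897 ± 1.25 units in roots and 0.585 ± 0.805 in shoots. ATMG00210 (L5) was detected in 16 root libraries and 2 shoot libraries, and ATMG01270 (S7) in 4 root libraries and 2 shoot libraries. ATMG00560, which the reference describes by a nucleic acid-binding fold, had 0.700 ± 0.708 units in roots and 1.18 ± 1.21 in shoots. ATMG00370, described as Ycf1, a name of a chloroplast gene, had 0.464 ± 0.675 units in roots and 1.63 ± 1.80 in shoots.

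Other genes with many whole numbers have no name in the reference used here. ATMG01360 averaged 6.41 ± 3.74 units in roots and 4.38 ± 3.24 in shoots. ATMG00510 averaged 6.04 ± 3.61 units in roots and 3.14 ± 3.28 in shoots, and ATMG00580 averaged 5.97 ± 2.96 units in roots and 4.08 ± 3.08 in shoots. ATMG00513 averaged 5.49 ± 3.01 units in roots and 3.09 ± 2.71 in shoots. ATMG00160 averaged 5.03 ± 2.44 units in roots and 5.24 ± 4.15 in shoots. ATMG01170 averaged 2.96 ± 2.08 units in roots and 5.17 ± 3.90 in shoots, and ATMG01370 averaged 1.04 ± 1.5 units in roots and 5.84 ± 3.68 in shoots.

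Roots differed from shoots in 11 of the 13 mitochondrial genes that passed a filter on low values, namely 10 units or more in 3 or more libraries. limma was fitted to log2(deposited value + 1), a scale on which changes of low genes come out too small, and p-values were adjusted over every gene in the fit, with a call at 0.05. Of all genes tested, 89.0% differed between the tissues (42.5% higher in roots and 46.5% lower), so a share of 11 in 13 is near the background and is no result about mitochondrial genes. Each ± beside a log2 change is limma's standard error. Called higher in roots were ATMG00030 (log2 change 2.12 ± 0.15), ATMG00510 (0.86 ± 0.16), ATMG00513 (0.76 ± 0.15), ATMG01360 (0.54 ± 0.15) and ATMG00580 (0.51 ± 0.13). Called lower in roots were ATMG01090 (-1.62 ± 0.14), ATMG00280 (-1.57 ± 0.24), ATMG01370 (-1.28 ± 0.13), ATMG01080 (-0.95 ± 0.13), ATMG00180 (-0.65 ± 0.12) and ATMG01170 (-0.35 ± 0.14, limma's adjusted p = 0.0214). ATMG00160 (0.15 ± 0.12) and ATMG01190 (0.03 ± 0.23) did not pass. A gene could pass the filter through 1 tissue alone, where it is high, so the 13 do not stand for the 78. The 2 shoot libraries that stand apart weigh on 2 of these genes. Without them ATMG00030 averaged 11.8 ± 6.78 units in shoots (SD, n = 28) and ATMG00280 averaged 4.13. The log2 change of ATMG00030 was then 2.26, and ATMG00280 was not tested.

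On whole numbers above the lowest, edgeR's quasi-likelihood test called 18 of 27 genes between the tissues, 8 higher and 10 lower in roots, against 87.9% of all genes, 42.0% higher and 45.9% lower. No mitochondrial gene held values in roots that did not overlap those in shoots over all 61 libraries, against 9.72% of all genes higher and 11.8% lower without overlap. Over the libraries of at least 8 M, ATMG01090 was lower in every root library than in every shoot library, as were 13.7% of all genes.

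**Figure D2:**
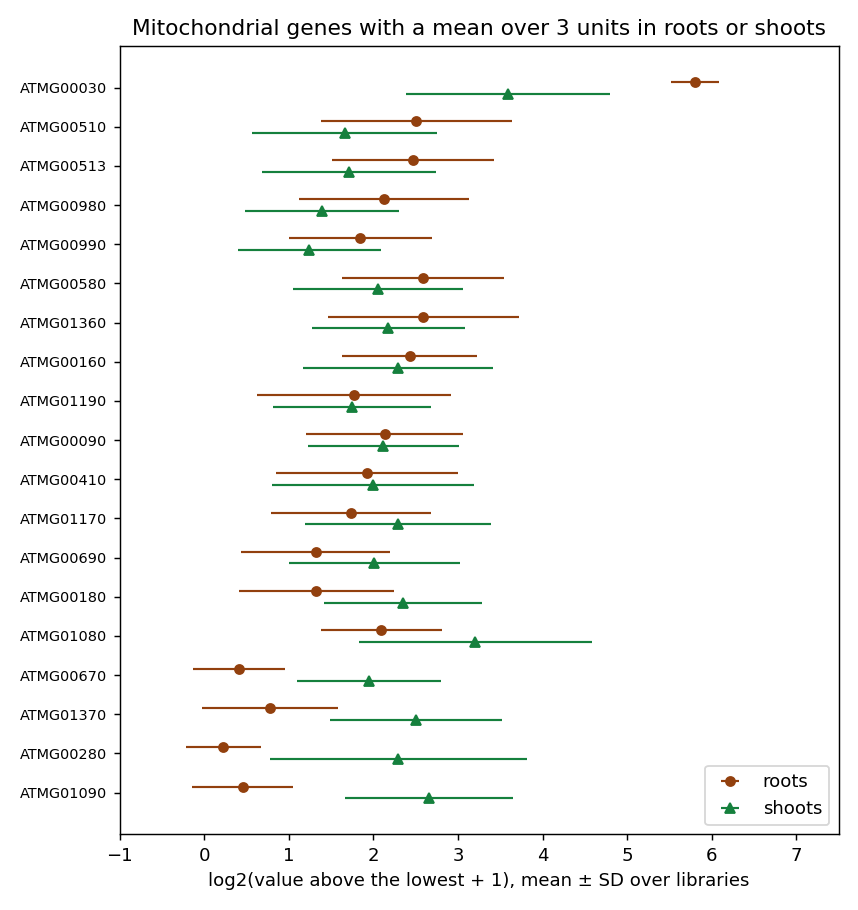
Mean ± SD over the root and shoot libraries of log2(value above the lowest + 1) for each mitochondrial gene whose mean exceeded 3 units in roots or shoots, with roots above shoots in each row. ATMG00030 lies further to the right in roots than in shoots, while ATMG01090, ATMG01370 and ATMG00280 lie near 0 in roots and higher in shoots.

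Summed over the 78 genes, the mitochondrial level of a library was 67.5 to 232 units in roots (median 158) and 19.7 to 376 units in shoots (median 127). In roots at 1 h it was 158, 232 and 167 units under t-chalcone and 121, 123 and 132 units under EtOH, with no overlap. The 7 root markers averaged 5.51, 4.64 and 5.68 on the log2 scale in these t-chalcone libraries and 7.37, 7.54 and 7.52 in the EtOH libraries, also without overlap, and their part in the result was not tested. In roots at 24 h it was 72.4, 97.3 and 102 units under t-chalcone and 150, 181 and 161 under EtOH, again with no overlap. These t-chalcone libraries held 0.866, 1.83 and 2.19 M whole numbers and the EtOH libraries 14.3, 11.6 and 9.30 M, and the part of depth in the lower sums was not tested. Root markers averaged 7.45, 7.92 and 7.5 in these t-chalcone libraries and 7.35, 7.39 and 6.66 in the EtOH libraries, and their part was not tested either. Root libraries under 2.5 M held 11.8 to 18.0 mitochondrial whole numbers per M, and those over 8 M held 17.7 to 38.4. EtOH roots at 0 h stood high, at 210 and 213 units.

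In shoots at 6 h the sum was 230, 257 and 270 units under t-chalcone and 152, 53.3 and 135 units under EtOH. Each t-chalcone library stood above each EtOH library, and 53, 53 and 50 genes were detected in the t-chalcone libraries, against 50, 18 and 32 in the EtOH libraries. Per M this was 30.1, 32.6 and 33.4 under t-chalcone and 19.8, 6.91 and 17.1 under EtOH. Depth was 19.5, 17.2 and 16.7 M in the t-chalcone libraries and 19.6, 5.81 and 10.8 M in the EtOH libraries. The EtOH library nearest in depth to the t-chalcone ones, at 19.6 M, held 152 units. The 8 photosynthesis markers averaged 13.2, 13.1 and 13.4 on the log2 scale in the t-chalcone libraries and 14.5, 14.6 and 14.6 in the EtOH libraries, without overlap, and their part in this result and in those at 6 h below was not tested. Root markers overlapped, at 3.09, 2.28 and 3.74 under t-chalcone and 3.04, 3.14 and 3.71 under EtOH. The shoot sums at 24 h were low, at 19.7 and 81.0 units under t-chalcone and 64.0 and 30.9 units under EtOH. In bulk tissue, fewer cells of a type and less RNA per cell cannot be told apart.

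**Figure D3:**
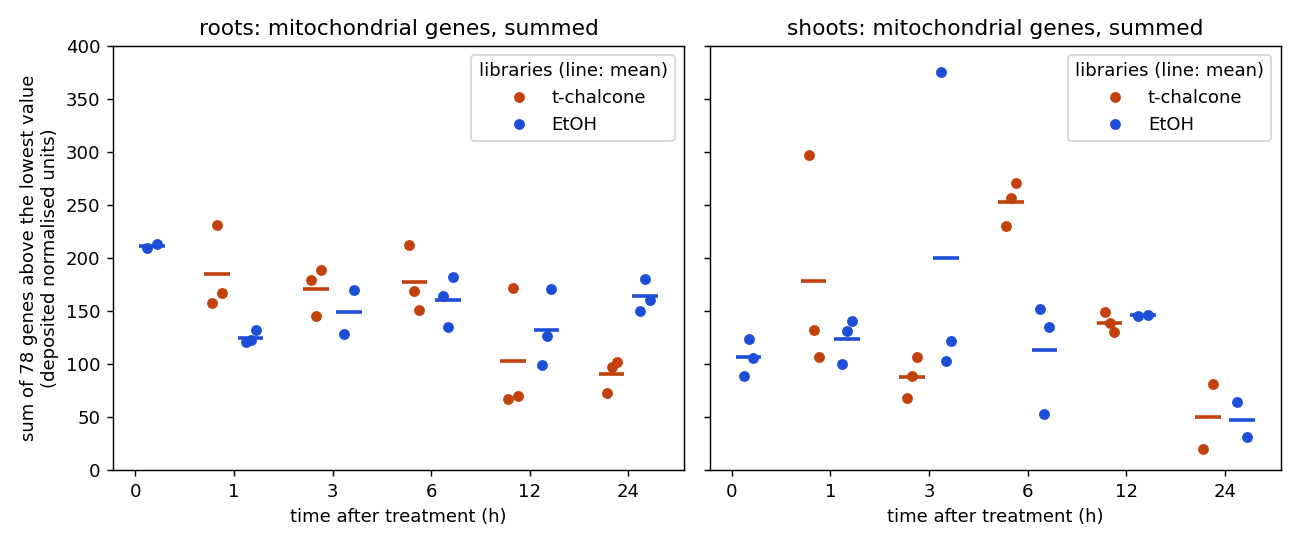
Sum of the 78 mitochondrial genes above the lowest value, in deposited normalised units, against hours after treatment, for roots and shoots, with 1 point per library and a line at the group mean. At 6 h the t-chalcone shoots lie between 230 and 270 units, above the EtOH shoots at 53.3 to 152, and 2 single shoot libraries reach 298 and 376 units.

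In roots, no mitochondrial gene passed the test between t-chalcone and EtOH at any of the 5 times. With limma, 6 genes were tested and 1 had an unadjusted p under 0.05 at 24 h and 0 at 1, 3, 6 and 12 h. With edgeR on whole numbers above the lowest, 0 of 23 genes passed, and 5, 0, 1, 0 and 4 had an unadjusted p under 0.05 at the 5 times in turn. Over all genes, limma called 8.81%, 8.54%, 1.24%, 0.716% and 12.8% at these times, and edgeR called 12.6%, 10%, 0.98%, 1.32% and 6.54%. The median log2 change of the 6 genes was 0.38 at 1 h, against -0.01 over all genes tested, and lay between -0.11 and -0.06 at the later times, against 0.07, -0.0030, -0.07 and -0.16 over all genes at 3, 6, 12 and 24 h. With edgeR the median over 23 genes was 0.51, 0.08, 0.18, 0.16 and -1.36 at the 5 times in turn, so the 2 tests differ in its sign at 3, 6 and 12 h, against -0.01, 0.07, -0.0027, -0.03 and -0.23 over all genes. At 24 h the genes include ATMG00980, which stood at the lowest value in all 3 t-chalcone libraries, and a fitted change of such a gene depends on edgeR's prior count.

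The gene with the lowest p at 1 h in roots was ATMG00510, with 3.92, 11.1 and 10.3 units under t-chalcone and 2.75, 3.41 and 6.42 under EtOH. The groups overlapped, and its log2 change was 0.77 ± 0.39 (limma's adjusted p = 0.320). The values of 6 of 70 detected genes were higher in every t-chalcone library than in every EtOH library at 1 h, while 11.2% of all genes were, and no gene was lower in all, while 15.4% of all genes were. The 6 included ATMG00030, ATMG01360 with 5.43, 13.8 and 6.07 units under t-chalcone against 5.11, 2.05 and 5.22 in EtOH, and the cytochrome c oxidase subunit ATMG00730 with 3.62, 5.89 and 2.5 units against 1.96, 1.71 and 2.41 in EtOH. At 3 h, 7 of 65 genes stood higher without overlap and 2 lower, while 29.7% and 15.7% of all genes did. At 6 h 3 of 66 stood higher (all genes 8.57%) and 0 lower (8.19%), and at 12 h none did in either direction (all genes 2.49% and 9.45%). ATMG00513 had the lowest p at 3 h (log2 change 0.32 ± 0.43, limma's adjusted p = 0.747), ATMG00510 at 6 h (-0.34 ± 0.39, 0.930) and ATMG01190 at 12 h (0.99 ± 0.77, 0.548).

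At 24 h in roots, 15 of 51 detected genes (29.4%) were lower in every t-chalcone library than in every EtOH library, while 32.8% of all genes were. Among them, ATMG00980, a ribosomal protein gene, stood at 0 in all 3 t-chalcone libraries and at 3.85, 6.30 and 4.71 units in EtOH. ATMG00990, a complex I subunit, had 0, 0 and 2.62 units under t-chalcone and 7.27, 5.77 and 3.37 under EtOH. A single whole number was worth 6.58, 3.14 and 2.62 units in these t-chalcone libraries and 0.428 to 0.673 in the EtOH libraries, so a value of 0 there does not show a level under a few units. ATMG01190, ATP synthase subunit 1, had the lowest p, with 6.58, 9.41 and 0 units under t-chalcone and 0.856, 2.62 and 0.673 under EtOH. The groups overlapped, and the log2 change of 1.65 ± 0.77 did not pass (unadjusted p = 0.0394, limma's adjusted p = 0.146). The fitted values include the lowest value itself, which was higher in the t-chalcone libraries. All 3 of these t-chalcone libraries also carry an S number in their labels, where the EtOH libraries carry an index sequence, so depth, label and treatment cannot be told apart at this time.

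Averaged over the 5 times, t-chalcone changed no mitochondrial gene in roots past the threshold. ATMG00580 had the lowest p there (log2 change 0.18 ± 0.16, limma's adjusted p = 0.598), and 9.44% of all genes passed. In shoots ATMG00030 had the lowest p (0.60 ± 0.29, 0.367), and 2.65% of all genes passed. In neither tissue did limma give an unadjusted p under 0.05 for any of them, and edgeR called 0, with 0 in roots and 1 in shoots under 0.05 unadjusted, while it called 9.52% of all genes in roots and 2.23% in shoots.

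In shoots, 2 of the 9 genes tested rose under t-chalcone at 6 h, while 0 passed at 1, 3, 12 and 24 h, where 0, 0, 1 and 1 had an unadjusted p under 0.05 with limma. At 6 h, 23.2% of all genes passed, 15.4% higher and 7.73% lower, so 2 higher of 9 is near the background. Both called genes would pass the filter through the t-chalcone libraries of 6 h alone, where they are high. ATMG00160 had 12.1, 16.1 and 15.1 units under t-chalcone and 4.32, 0 and 2.21 under EtOH. Every t-chalcone library stood above every EtOH library, and the log2 change was 2.07 ± 0.44 (limma's adjusted p = 0.000957). ATMG01170 had 13.3, 14.2 and 12.2 units under t-chalcone and 3.53, 2.67 and 5.89 under EtOH, also without overlap. Its log2 change was 1.36 ± 0.46 (limma's adjusted p = 0.0328), a call that was lost in 5 of 6 fits that left out 1 of these 6 libraries (adjusted p 0.0603 to 0.105). It was also lost without libraries under 8 M, which removes the EtOH library of 5.81 M (0.0913), while ATMG00160 passed there.

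The other 7 genes tested in shoots at 6 h did not pass. ATMG01080, F0 subunit 9 of the ATP synthase, had 23.1, 26.1 and 45.2 units under t-chalcone and 19.2, 13.3 and 14.7 under EtOH. The groups did not overlap, and the log2 change was 0.86 ± 0.44 (limma's adjusted p = 0.167). ATMG00180, for cytochrome c biogenesis, had 9.79, 15.6 and 10.7 units under t-chalcone and 6.28, 6.67 and 5.89 under EtOH (log2 change 0.71 ± 0.40, limma's adjusted p = 0.215). ATMG01090 had 11.8, 10.1 and 18.5 units under t-chalcone and 5.89, 4 and 8.83 under EtOH, and ATMG01370 had 12.9, 10.1 and 14.6 units under t-chalcone and 9.03, 4 and 8.83 under EtOH. ATMG00510 and ATMG00280 overlapped between the groups. The median log2 change of the 9 genes was 0.86, against 0.06 over all genes. A gene could pass the filter through the t-chalcone libraries of 6 h alone, as ATMG01090 and ATMG01370 would by the values above. This median is therefore no measure of the mitochondrial genes as a whole.

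With edgeR on whole numbers above the lowest, which could test 26 mitochondrial genes, 3 passed at 6 h in shoots, all higher, while 24.5% of all genes passed, 16.3% as higher. These were ATMG00160 (log2 change 2.34, edgeR's adjusted p = 0.00602), ATMG01170 (1.67, 0.0365) and ATMG00670 (1.55, 0.0434). ATMG00670, with no name in the reference, had 9.01, 11.9 and 7.78 units under t-chalcone and 3.14, 2.67 and 3.68 under EtOH. ATMG00690, also without a name, had 8.62, 11 and 7.78 units under t-chalcone and 3.14, 2.67 and 3.68 under EtOH, and was named here after its values were seen. Of 67 genes detected at 6 h, 21 (31.3%) were higher in every t-chalcone library and 0 were lower, while 25.2% and 13.3% of all genes were. The 21 included ATMG00410, ATMG01080 and ATMG01090, which the reference describes as ATP synthase genes. They also included the complex I gene ATMG01320 and the complex IV gene ATMG00730.

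**Figure D4:**
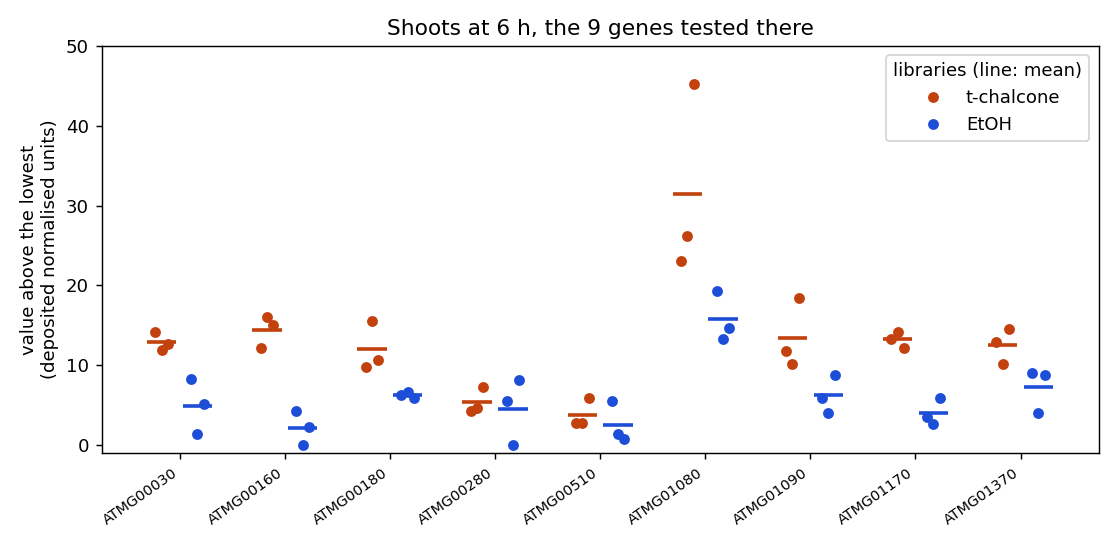
Values above the lowest, in deposited normalised units, of the 9 mitochondrial genes tested in shoots at 6 h, with t-chalcone left of EtOH, 1 point per library and a line at the mean of 3. ATMG00160 and ATMG01170, which passed the test, lie at 12.1 to 16.1 units under t-chalcone and at 0 to 5.89 under EtOH.

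At the other times in shoots, the gene with the lowest p was ATMG00280 at 1 h (log2 change 0.92 ± 0.94, limma's adjusted p = 0.773), which rests on the t-chalcone library that stands apart and which was not tested without it. At 3 h it was ATMG01080 (-0.74 ± 0.44, 0.325), at 12 h ATMG01170 (-1.06 ± 0.51, 0.286) and at 24 h ATMG00180 (-1.11 ± 0.49, 0.134). At 1 h 0 of 58 detected genes were higher or lower in every t-chalcone library, while 9.3% and 5.64% of all genes were. At 3 h 7 of 55 (12.7%) were lower in every t-chalcone library, while 18.5% of all genes were. At this time 0 were higher, while 4.36% of all genes were. At 12 h 2 genes were higher and 7 lower of 62, while 19.0% and 19.6% of all genes were. At 24 h, with 2 libraries per group, 1 was higher and 1 lower of 43, while 19.3% and 21.3% of all genes were. Over all genes limma called 0.481%, 6.84%, 4.34% and 12.8% at 1, 3, 12 and 24 h. With edgeR 0 of 26 mitochondrial genes passed at these times, and 0, 5, 0 and 0 had an unadjusted p under 0.05, while 0.832%, 3.58%, 5.3% and 6.47% of all genes passed.

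Whether the response to t-chalcone differed between times was tested with limma's moderated F test. In shoots it differed for ATMG00160 (adjusted p = 0.0198), among 33.4% of all genes that passed, and for 0 of 6 genes in roots, where 16.8% of all genes passed. In roots 0 of the 6 had an unadjusted p under 0.05, and edgeR called 0 of 23 with 1 under 0.05 unadjusted, against 17.4% of all genes. edgeR on whole numbers above the lowest called ATMG00180 in shoots instead (adjusted p = 0.0445), among 30.9% of all genes. Between the tissues, the response of ATMG00160 at 6 h was lower in roots than in shoots by a log2 difference of -1.79 ± 0.53 (limma's adjusted p = 0.0279), while 6.6% of all genes passed, 4.46% as lower. Its root values at 6 h were 5.96, 4.83 and 5.52 units under t-chalcone and 4.07, 2.64 and 5.40 under EtOH. ATMG00160 would pass the filter of these limma fits through the t-chalcone shoots of 6 h alone, where it is high. Its calls between times and between tissues therefore add no support to its rise there. At 24 h limma gave ATMG01370 a difference of 2.08 ± 0.65 for roots minus shoots (adjusted p = 0.0223), while 16.8% of all genes passed, 5.23% as higher. No direction is read from this value, since the fitted values include the lowest value of each library, 2.62 to 6.58 units in the t-chalcone roots and 0.428 to 0.673 in the EtOH roots. Its root values above the lowest were 0, 0 and 5.23 units under t-chalcone and 0.856, 0 and 0 under EtOH, and its shoot values 0 and 3.61 under t-chalcone and 4.16 and 0 under EtOH. edgeR called 0 of 27 genes at either time, with 3 and 0 under 0.05 unadjusted, while it called 8.39% and 8.34% of all genes. At 1, 3 and 12 h limma called 0 of 13 differences between the tissues, with 0, 1 and 0 under 0.05 unadjusted, and 1.45%, 3.82% and 1.04% of all genes. edgeR called 0 of 27 at these times, with 0, 5 and 0 under 0.05 unadjusted, and 2.45%, 2.49% and 1.82% of all genes.

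Among the EtOH libraries, some mitochondrial genes varied over 0 to 24 h, a course in which the hour of day moves together with time after treatment. In roots ATMG00030 did (limma's F test, adjusted p = 0.0312), 1 of 6 genes tested, while 42.5% of all genes did. Its highest library was one of 0 h, at 89.1 units, while single libraries of 12 h (74.3) and 24 h (74.7) stood above the other of 0 h (71.8). In shoots 2 of 9 genes did, while 79.2% of all genes did. These were ATMG00030 (adjusted p = 0.0264) and ATMG01080 (adjusted p = 0.0275). ATMG00030 in EtOH shoots held 11.4, 14.8 and 8.52 units at 0 h, 16.2, 16.5 and 16.8 at 1 h, 82.1, 6.55 and 10.7 at 3 h, 8.24, 1.33 and 5.15 at 6 h, 12.8 and 12.3 at 12 h, and 2.49 and 0 at 24 h. ATMG01080 held 6.12, 8.02 and 14.6 units at 0 h, 7.28, 10.6 and 12.4 at 1 h, 17.1, 7.64 and 10.4 at 3 h, 19.2, 13.3 and 14.7 at 6 h, 11.5 and 9.95 at 12 h, and 2.49 and 0 at 24 h. Both were lowest at 24 h, where 1 of the 2 libraries held 2.14 M whole numbers. Without the libraries that carry an S number, that library among them, neither passed in shoots. Without the 2 libraries that stand apart both passed (adjusted p = 0.00407 for ATMG00030 and 0.0246 for ATMG01080). These libraries were picked by their high ATMG00030 and ATMG00280 values, so fits without them give ATMG00030 no added support. edgeR called ATMG00030 in both tissues (adjusted p = 0.0143 in roots and 0.0128 in shoots) and ATMG00280 in shoots (0.0383), not ATMG01080, while it called 50.2% of all genes in roots and 77.0% in shoots. Without the 2 libraries that stand apart, edgeR did not call ATMG00280 (adjusted p = 0.206) and still called ATMG00030 in shoots (0.0125).

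A copy of much of the mitochondrial genome lies in nuclear chromosome 2 of the reference. Of the 78 genes, 36 are cited in notes on nuclear genes there, and 28 of the nuclear partners were in the table. Reads of near-identical copies may be split between the rows, so the values of both are uncertain. The 28 partners summed to 6.58 to 127 units in root libraries and 3.28 to 562 units in shoot libraries. AT2G07698, the partner of ATMG01190, averaged 33.1 ± 15.3 units in roots and 17.3 ± 10.9 in shoots. AT2G07671, the partner of ATMG01080, averaged 5 ± 2.98 units in roots and 14.8 ± 8.35 in shoots. All 5 partners tested differed between the tissues, as did 89.0% of all genes, so this is near the background. AT2G07698 was higher in roots (log2 change 1.04), and AT2G07732 (-3.21), AT2G07671 (-1.09), AT2G07739 (-0.61) and AT2G07708 (-0.45) were lower.

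Under t-chalcone, 2 of the partners passed a test. AT2G07708, the partner of the unnamed ATMG00500, rose in shoots at 6 h, with 18.0, 18.3 and 12.6 units under t-chalcone and 3.14, 0 and 11 under EtOH (log2 change 1.78 ± 0.46, limma's adjusted p = 0.00553). At this time 15.4% of all genes rose, and the call was lost in 3 of 17 alternatives (adjusted p up to 0.246), among them the fit without shoots EtOH 6 h replicate 2. ATMG00500 itself reached at most 1.64 units in any shoot library. AT2G07698 fell in roots at 24 h, with 6.58, 9.41 and 23.6 units under t-chalcone and 38.5, 32.0 and 41.1 under EtOH (-1.15 ± 0.36, 0.0327), in the shallow libraries described above. At this time 12.8% of all genes passed, and the call was lost in 9 of 14 alternatives (adjusted p up to 0.195), among them 4 of 6 that left out 1 library. When each member was summed with its nuclear partner, ATMG01190 with AT2G07698 was higher under t-chalcone in roots at 1 h (log2 change 0.67, limma's adjusted p = 0.0353) and 6 h (0.87, 0.0234). AT2G07698 alone held 41.9, 41.6 and 38.6 units at 1 h under t-chalcone and 20.03, 27.0 and 26.5 under EtOH. At 6 h AT2G07698 held 59.6, 68.3 and 33.1 units under t-chalcone and 8.13, 29.1 and 34.8 under EtOH, which overlap. In the limma fit of single rows, 8.81% of all genes passed in roots at 1 h and 1.24% at 6 h. In shoots at 6 h the summed rows called 4 genes, all higher, with ATMG00480 (1.12) and ATMG00500 (1.49) beside ATMG00160 and ATMG01170.

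Nuclear genes that serve the same complexes, and nuclear genes for mitochondrial RNA, were counted from lists chosen for this purpose. Of 37 nuclear respiratory chain genes, 34 were higher and 3 lower in roots than in shoots, with a median log2 change of 0.68, while 42.5% of all genes were higher and 46.5% lower. The 3 with the highest changes were AT5G25450 (2.49), SDH1-1 (1.43), the flavoprotein subunit of complex II, and AT3G27240 (1.29), a cytochrome c1 gene of complex III. Lower were GAMMA CA1 (-0.22), AT5G40810 (-0.21) and FRO1 (-0.13). The list for mitochondrial RNA synthesis, splicing, editing and decay also holds at least 1 gene that acts on mitochondrial DNA, MSH1. Of 25 genes tested of this list, 1 was higher, the helicase PMH1 (0.28), and 23 were lower, with a median of -0.42. The lowest were EMB2730 (-1.86), RPF1 (-1.30), an RNA processing factor, and MSH1 (-1.15), which guards mitochondrial DNA against recombination. With 89.0% of all genes called, the number of list genes that differed is near the background.

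In shoots at 6 h, where ATMG00160 and ATMG01170 rose, 17 of 37 respiratory chain genes rose and 0 fell, with a median of 0.23 against 0.06 over all genes tested. The 17 became 11 to 13 when any 1 of the 6 libraries was left out, 10 with TMM scaling and 1 with all libraries kept. CYTC-1, a gene of cytochrome c itself, rose by a log2 change of 0.72 ± 0.09, AT3G15640, a cytochrome c oxidase subunit, by 0.54 ± 0.12 and AT5G08690, a beta subunit of ATP synthase, by 0.51 ± 0.11. Over all genes, 15.4% passed as higher at this time. Of 25 genes of the RNA list, 8 rose and 0 fell, with a median of 0.24, among them PMH1 (0.86), AT5G14580 (0.85), a polynucleotide phosphorylase, and MSH1 (0.68). The 8 became 5 to 8 when 1 library was left out and 0 with all libraries kept. In roots 0 of 37 and 0 of 25 passed at 6 h, while 1.24% of all genes did. The difference between the tissues passed for 5 respiratory chain genes, all with a lower response in roots, and for 0 of the RNA list, while 6.6% of all genes passed, 4.46% as lower. The 5 became 4 to 10 when 1 other group was left out of both tissues, with 10 without t-chalcone at 12 h, and 0 with all libraries kept.

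Genes of these lists also passed in shoots at 3, 12 and 24 h, and their counts are not read as a result about the lists. At 3 h 4 respiratory chain genes fell, among them AT3G15640 (-0.50), AT5G08670 (-0.37) and AT5G13430 (-0.34), while 6.84% of all genes passed. The 4 became 0 without the 2 libraries that stand apart, and 0 to 13 when 1 library was left out, with 13 without t-chalcone replicate 2 and 0 without t-chalcone replicate 1 or 3 or EtOH replicate 1 or 2. At 12 h the RNA polymerase gene MGP3 fell by a log2 change of 0.48, a call lost in 5 of 16 alternatives, while 4.34% of all genes passed. At 24 h GAMMA CAL2 rose (0.68) and 6 respiratory chain genes fell, among them SDH1-1 (-0.54), AT5G13440 (-0.46) and MPPBETA (-0.42), while 12.8% of all genes passed. Of the RNA list, RPF1 (0.91) and ABO5 (0.76) rose and OTP43 (-1.10) fell at 24 h. No gene of either list passed at 24 h without the libraries that carry an S number. When 1 library was left out, 3 to 7 respiratory chain genes and 0 to 5 of the RNA list passed, with 3 and 0 once EtOH replicate 2 was dropped, and 4 and 0 once t-chalcone replicate 1 was. The call of GAMMA CAL2 was lost in 8 of 15 alternatives, as were those of ABO5 and OTP43, and that of RPF1 in 6. In roots CYTC-2, the other cytochrome c gene of the list, rose at 1 h (0.48) and 3 h (0.56), calls lost in 6 of 16 and 4 of 15 alternatives, while 8.81% and 8.54% of all genes passed. At 24 h in roots SDH2-2 (-0.52), of complex II, and AT1G51650 (-0.49), of the ATP synthase, fell and MSH1 (0.74) rose, while 12.8% of all genes passed. The first 2 calls were lost in 5 of 14 alternatives each and that of MSH1 in 7, and all 3 without EtOH replicate 3. All 3 t-chalcone libraries there lie under 2.5 M and carry an S number, so depth, label and treatment cannot be told apart.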

How the data were processed

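RNA sequencing libraries were made from total RNA with Illumina TruSeq RNA kits, per the labels' protocols. The deposited table holds a normalised signal, made by the authors from read counts by size-factor scaling. The submitters' processing notes name DESeq2 1.14.1 and TAIR10. Aligner, counter and strand setting were not given in the sources used here, so a gene and its antisense partner may share reads. Dividing a column by its lowest value gave whole numbers, within 0.01, for 100.0% of values, and their totals stand for depth. They follow reads only up to a factor per library.

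Of 72 columns, 6 pairs were identical, which left 66 libraries. The 5 whose lowest value exceeded 10 units were left out. Values above the lowest were computed as the whole number less 1, times the lowest value. Tests used limma 3.58.1 in R 4.3.3 on log2(deposited value + 1), per tissue, with 1 mean per group and a trend, for genes at 10 units or more in 3 or more libraries. Contrasts between tissues came from 1 fit of both. Two-sided p-values had a Benjamini-Hochberg adjustment over the whole table, at 0.05. The limma and edgeR fits were tested on simulated data, for t-chalcone against EtOH in roots at 1 h and in shoots at 6 h only. edgeR 4.0.16 on whole numbers less 1, for genes with a mean of at least 3, was added after the data were seen, as were the tests of responses between times and tissues, the sums with nuclear copies, and the fits without libraries under 8 M or without the 2 shoot libraries that stand apart (limma throughout, and edgeR for the course in EtOH shoots). Other alternatives were another pseudocount, no filter, TMM scaling, all libraries kept, libraries with an S number left out, and only the groups compared. Each library was also left out in turn within a tissue. For contrasts between tissues, each group was instead left out of both tissues in turn.

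Genes named were, per role, the 2 with the highest mean, and per comparison up to 5 called in each direction or else the lowest p, with up to 3 called per direction in each nuclear list. Other genes named were chosen after their values were seen. The members and lists were chosen with earlier results of these data known. Roles come from notes of the TAIR10.1 reference on nuclear copies, which describe 32 of the 78 genes, 22 of them with a function. 7 libraries whose labels carry an S number instead of an index sequence were treated as a possible library batch.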

Additional observations from a re-analysis of the deposited data

Results flagged for a closer look

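The response of ATMG00160 to t-chalcone differed between the 5 times in shoots (limma's F test, adjusted p = 0.0198, range over the alternatives 0.0104 to 0.299). Its response at 6 h differed between the tissues, with a log2 difference of -1.79 for roots minus shoots (adjusted p = 0.0279, range over the alternatives 0.0131 to 0.939). ATMG00160 would pass the filter through the t-chalcone shoots of 6 h alone, so neither result adds support to its rise there. The response of ATMG01370 at 24 h differed between the tissues by 2.08 (adjusted p = 0.0223, range over the alternatives 0.0159 to 0.396), and all 3 root t-chalcone libraries of that contrast lie under 2.5 M. No direction is read from it, since the fitted values include the lowest value of each library, 2.62 to 6.58 units in the t-chalcone roots and 0.428 to 0.673 in the EtOH roots, and edgeR above the lowest did not call it.

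A library that no comparison uses, shoots EtOH 12 h replicate 2, held 5586 mitochondrial whole numbers per M (mega) above its lowest value, at a depth of 0.246 M, while the shoot libraries used held 2.56 to 44.5. It held 31 of the 78 genes above its lowest value, and 22.2% of all genes. Groups had at most 3 libraries, so no search for single outlying libraries within a group could be made.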

How the results depend on the processing

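No paired analysis was possible because the labels give no replicate numbers, so that numbers given in accession order only name libraries.

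Counts of mitochondrial genes that passed depended on how low values were treated, and causes were not tested unless the construction shows them. Shares of all genes under these settings are not given here, so no count below is read as a result about mitochondrial genes. Between the tissues, 89.0% of all genes passed in the limma fit described above. Without the filter all 78 genes were tested. Then 1 gene passed as lower in roots at 3 h, 51 as higher in roots at 24 h, 1 in the root mean of the 5 times, 8 between times in roots, 4 over time in EtOH roots, 2 between times in shoots, 32 between roots and shoots (19 higher, 13 lower), 1 in the difference between tissues at 3 h and 32 in that at 24 h. The 51 follow from the lowest value itself, which is 2.62 to 6.58 units in the t-chalcone roots at 24 h and 0.428 to 0.673 in the EtOH roots. With members summed with their nuclear copies, 1 passed in roots at 1 h, 1 at 6 h, 1 in the mean, 1 between times and 2 over time in EtOH, and 4 passed in shoots at 6 h, 1 over time in EtOH shoots, 23 of 25 between the tissues and 3 in the difference between tissues at 24 h.

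With all 66 libraries kept, 2 passed over time in EtOH roots, and 0 in shoots at 6 h, between times in shoots, over time in EtOH shoots and in the differences between tissues at 6 h and 24 h. edgeR on the whole numbers themselves called 2 over time in EtOH roots, 3 between times in shoots and 0 in the differences between tissues at 6 h and 24 h. edgeR above the lowest called 18 between the tissues and 0 in those 2 differences. TMM scaling called 2 over time in EtOH roots. A pseudocount of 10 called 2 between times in shoots, 0 over time in EtOH shoots and 0 in the difference at 24 h. Without the libraries with an S number, 0 passed over time in EtOH shoots. Without libraries under 8 M, 1 passed in shoots at 6 h, 0 between times in shoots, 1 over time in EtOH shoots and 0 in the difference at 6 h. Without the 2 shoot libraries that stand apart, 2 passed in the difference at 24 h, and edgeR above the lowest called 1 over time in EtOH shoots.

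Leaving out 1 library at a time, the count was 0 to 2 over time in EtOH roots and in EtOH shoots. It was 0 to 1 in shoots at 3 h, 1 to 2 in shoots at 6 h and 0 to 2 between times in shoots. In the fit of both tissues, 1 group at a time was instead left out of both. The count was then 7 to 11 between the tissues and 0 to 2 in the difference at 24 h. The direction reversed for ATMG00513 in roots at 3 h (-0.36) and for ATMG00030 in the shoot mean (-0.15) with all libraries kept. It reversed without libraries under 8 M for ATMG00510 in roots at 6 h (0.043), for ATMG01080 in shoots at 3 h (0.53) and for its difference between tissues at 3 h (-0.14). It also reversed for ATMG00510 without roots t-chalcone 6 h replicate 3 (0.011; 1 library left out at a time, -0.60 to 0.011), and for ATMG01190 in roots at 24 h when summed with its copy (-0.55). None of these had passed. Root comparisons at 24 h and over all times could not be made without the libraries with an S number or under 8 M, since no t-chalcone library is left at 24 h, and with only its own groups the shoot comparison at 24 h had no mitochondrial gene to test.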
